A study of Mus musculus with 9 samples.

Results

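The 7 windows described here cover known imprint regions of 6 genes: Mcts2, Nnat and Gnas on mouse chromosome 2, and Peg10, Mest and Nap1l5 on chromosome 6. They were chosen by position alone, as fixed intervals on genome build mm9, and Gnas has 2 windows. Within them 565 CpGs were seen in at least 1 library, and 305 had at least 5 calls in 6 or more samples and were kept, of 1151670 kept CpGs in the series. A call is 1 read base at a CpG, scored as methylated or unmethylated, and a methylation level is the percentage of methylated calls.

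The study asked how the DNA methylation of a somatic nucleus compares before and after its transfer into an egg. One group, labelled TT, is fibroblasts grown in culture from tail tips of adult males, and the other, labelled NTZy14, is nuclear transfer (NT) embryos. To make them, a nucleus from such a fibroblast was put into a C57/B6 oocyte whose own nucleus had been removed, and the embryo was activated with strontium chloride and cultured in KSOM medium. Each group held 4 samples, 2 with the strain label BDF1-CAST (numbers 1 and 2) and 2 with the strain label X1 (numbers 3 and 4), measured by reduced representation bisulfite sequencing. In this method DNA is cut with MspI at CCGG, short fragments are treated with bisulfite, and unmethylated cytosines then read as thymines. No label used here says what Zy14 and X1 stand for, how many embryos were pooled, or whether samples of a group came from separate animals, so p-values measure only the spread between these samples. Calls were not split by parental allele, and donor fibroblasts of a given embryo are not identified.

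Depth was lower in the embryos. The files held 35442175 to 41466097 calls in the fibroblast libraries and 25239364 to 30396273 in the NT libraries, with a median of 15 to 19 calls per CpG against 8 to 12. Methylation also fell across the genome in NT embryos: 3.56% of 271481 tested tiles of 100 bp were called different, 3.43% with a lower level in NT.

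Genomic imprinting is the expression of a gene from 1 parental copy, set by methylation that differs between egg and sperm and is kept after fertilization. At most of the regions described here the egg's copy carries the methylation and the sperm's copy does not. The Nesp region at the left end of Gnas window 1 is an exception, methylated on the paternal copy. In either case a cell with an intact imprint reads close to the midpoint between none and full. After fertilization this mark is protected while much other methylation is lost. The zinc finger protein ZFP57 takes part in the protection by binding the methylated sequence TGCCGC, which recruits KAP1 and DNMT1. The genes lie in varied settings. Mcts2, a retrogene related to the translation factor Mcts1, lies inside an intron of H13. Nnat encodes neuronatin, a small membrane proteolipid, inside an intron of Blcap. Nap1l5, of the nucleosome assembly protein family, lies inside Herc3. Peg10, a retrotransposon-derived gene required for placental development, starts beside Sgce. Mest, also called Peg1, encodes a member of the alpha/beta hydrolase fold family. Gnas encodes the alpha subunit of the stimulatory G protein and has several alternative promoters with different imprints.

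RefSeq promoters of 300 bases were found for 5 of the 6 genes. Promoters of 3 of them could be placed inside the windows, because the spacing of their CpGs fitted the spacing of the deposited CpG positions at 1 place and with no mismatch. They are shown because the methylation values below can be read on them base by base. Each runs 5′ to 3′ from 250 bases before to 50 bases after the start. Capitals mark the CpGs kept in the data. All 3 lie on the plus strand and come from RefSeq on GRCm38.p6.
Mcts2 chr2:152686898-152687197: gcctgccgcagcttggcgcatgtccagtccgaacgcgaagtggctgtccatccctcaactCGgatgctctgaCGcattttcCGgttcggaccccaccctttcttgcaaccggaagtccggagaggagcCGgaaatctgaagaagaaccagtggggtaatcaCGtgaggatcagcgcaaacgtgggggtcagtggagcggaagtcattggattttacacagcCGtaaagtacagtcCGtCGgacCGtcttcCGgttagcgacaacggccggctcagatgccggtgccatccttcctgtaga
Nnat chr2:157559828-157560127: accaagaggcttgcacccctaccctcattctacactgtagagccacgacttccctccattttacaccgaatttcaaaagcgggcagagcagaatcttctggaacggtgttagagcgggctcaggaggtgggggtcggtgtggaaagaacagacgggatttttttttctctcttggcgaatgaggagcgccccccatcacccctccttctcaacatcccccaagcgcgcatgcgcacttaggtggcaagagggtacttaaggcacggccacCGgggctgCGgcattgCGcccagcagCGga
Gnas chr2:174329756-174330055: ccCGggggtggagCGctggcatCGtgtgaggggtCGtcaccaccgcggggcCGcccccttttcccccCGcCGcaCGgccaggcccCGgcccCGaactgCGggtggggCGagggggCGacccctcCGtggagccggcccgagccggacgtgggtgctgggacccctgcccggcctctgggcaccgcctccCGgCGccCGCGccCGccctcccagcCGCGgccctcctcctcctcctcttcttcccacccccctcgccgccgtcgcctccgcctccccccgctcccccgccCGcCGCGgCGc

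In mm9 these promoters were placed at chr2:152512633-152512932, chr2:157385563-157385862 and chr2:174155256-174155555. The Mcts2 promoter held 25 CpGs, of which 10 were kept. The Nnat promoter held 17, of which 4 were kept, all within the 50 bases after the start. The Gnas promoter held 40, of which 25 were kept. The motif TGCCGC, searched on both strands, occurred 1 time each in the Mcts2 and Nnat promoters and not in the Gnas promoter. It occurred in 11.6% of the 32851 promoters in the table. The MspI site CCGG occurred 7, 1 and 6 times, and 52.8% of all promoters held at least 1.

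Fibroblasts read near the midpoint in 6 of the 7 windows, with group means from 38.2% at Mest to 48.0% at Mcts2. Gnas window 2 was the exception at 10.3%. Of the 305 kept CpGs, 221 had a mean fibroblast level between 20 and 80%. In NT embryos the mean was lower than in fibroblasts in 7 of 7 windows, with differences of -3.50 to -22.7 percentage points. A lower mean in NT was also found in 89.8% of 264 reference windows, which are autosomal windows of 3000 bp outside imprint regions, with 20 or more kept CpGs, at 30 to 70% in fibroblasts. Only at Nnat were all 4 NT samples below all 4 fibroblast samples. This separation was found in 26.9% of the same reference windows.

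**Figure D1:**
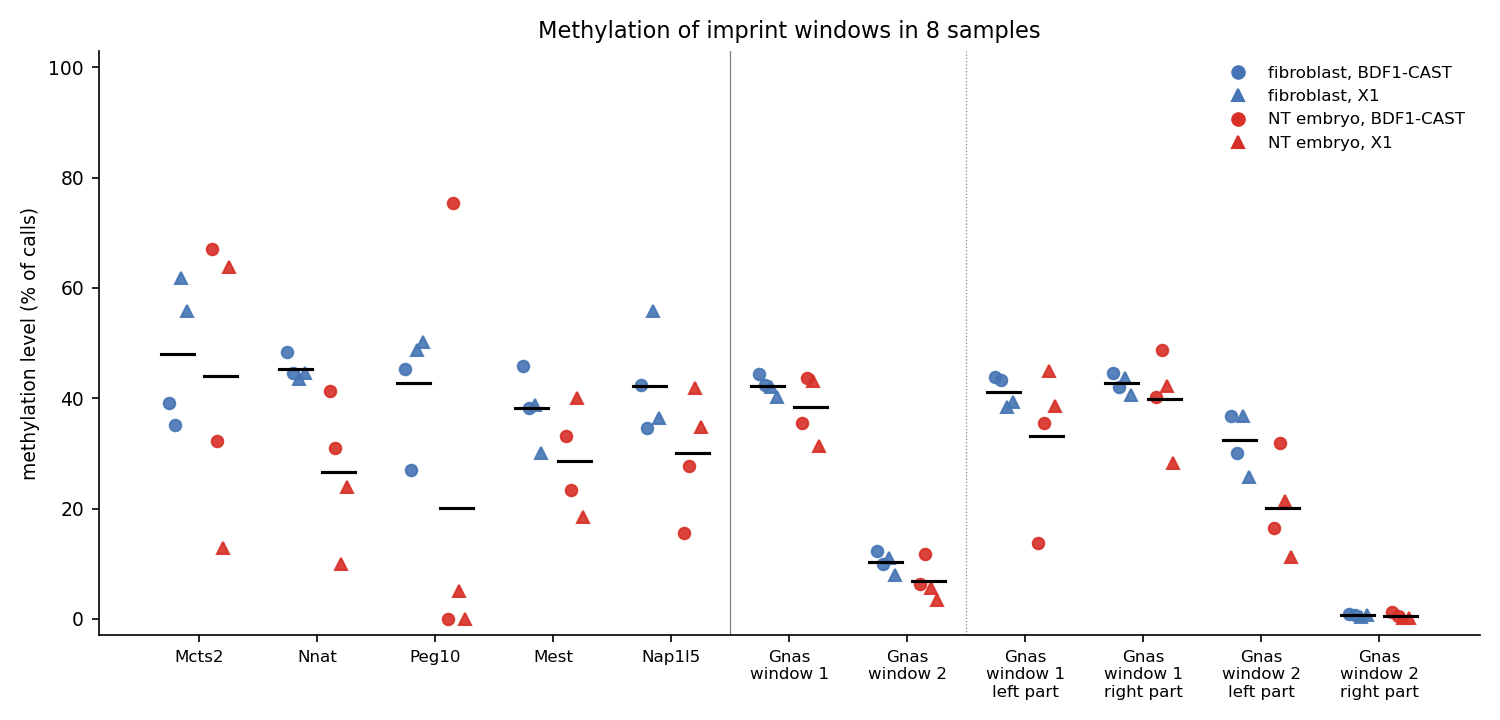
Methylation level (percent of calls, y axis) of each window in each sample, with fibroblasts in blue, NT embryos in red, circles for BDF1-CAST, triangles for X1, and black bars for the mean of 4 samples. Fibroblasts sit between 27.0 and 61.8% in every window but Gnas window 2, while NT embryos range from 0 to 75.4% at Peg10. The 4 entries on the right give each Gnas window as 2 parts.

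The spread between NT samples was wider than between fibroblasts in 7 of 7 windows. The standard deviation (SD) over 4 samples was 1.69 to 12.8 points in fibroblasts and 3.59 to 36.9 points in NT embryos. Wider spread in NT was also found in 84.2% of 2899 reference windows with 8 to 30 kept CpGs, with medians of 6.73 (fibroblasts) and 13.4 points (NT) for the SD. An NT SD as high as that of Peg10 was found in 14 of those windows (0.483%), and 1 as high as that of Mcts2 in 232 of them. Those windows were not matched to Peg10 or Mcts2 in number of calls or in the length of the stretch with kept CpGs. Their share therefore does not measure how unusual these SDs are. The part of the lower depth in this spread was not tested. No NT sample was the lowest in all windows. NT X1 4 was lowest in 4 windows, NT BDF1-CAST 1 in 2 and NT X1 3 in 2, with a tie at Peg10.

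Nnat, the window whose groups did not overlap, had a lower level in NT embryos. Its kept CpGs, 30 of 57 seen, ran over chr2:157385833-157387593. With 743 to 1626 calls per sample, the fibroblast samples 1 to 4 read 48.3, 44.5, 43.5 and 44.6%. With 561 to 708 calls, the NT samples 1 to 4 read 41.4, 31.0, 9.98 and 23.9%. Every NT sample was below every fibroblast sample, and both X1 NT samples were below both BDF1-CAST NT samples. The means were 45.2% ± 2.14 (SD, n = 4) and 26.6% ± 13.2 (SD, n = 4), a difference of -18.7 points (two-sided exact permutation p = 0.0286, the smallest that 4 against 4 samples allow). A p this small was found in 27.3% of the reference windows. The difference missed the threshold when only CpGs with 5 calls in all 8 samples were used (-15.7 points, exact permutation p = 0.114) and when CpGs were weighted equally (-13.5 points, exact permutation p = 0.171).

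The difference at Nnat varied along the window. In the 4 promoter CpGs the fibroblasts read 66.8, 67.1, 47.6 and 56.0%, and the NT samples read 84.9, 36.8, 2.99 and 66.7%. Here NT BDF1-CAST 1 was the highest of all 8 samples and NT X1 3 the lowest. As few as 15 calls stood behind a sample's value. Of 7 tested tiles, 6 had a lower mean in NT and 1 a higher mean, and none was called. The most negative difference was in the tile at chr2:157387300-157387399, where fibroblasts read 33.6, 41.4, 50 and 51.4% and NT samples 56.3, 12.5, 11.1 and 1.17% (quasi-binomial model, adjusted p = 0.14). In this tile, with 27 to 171 calls per sample, 3 of the 4 NT samples were below all fibroblasts and 1 was above them. The tile with the lowest fibroblast mean, chr2:157386200-157386299, read 32.9, 34.4, 37.6 and 25.6% in fibroblasts. Its NT samples read 28.6 and 37.1% in BDF1-CAST but 0 and 0% in X1. The interaction of group and strain in this tile had an adjusted p of 0.32 in the quasi-binomial model.

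**Figure D2:**
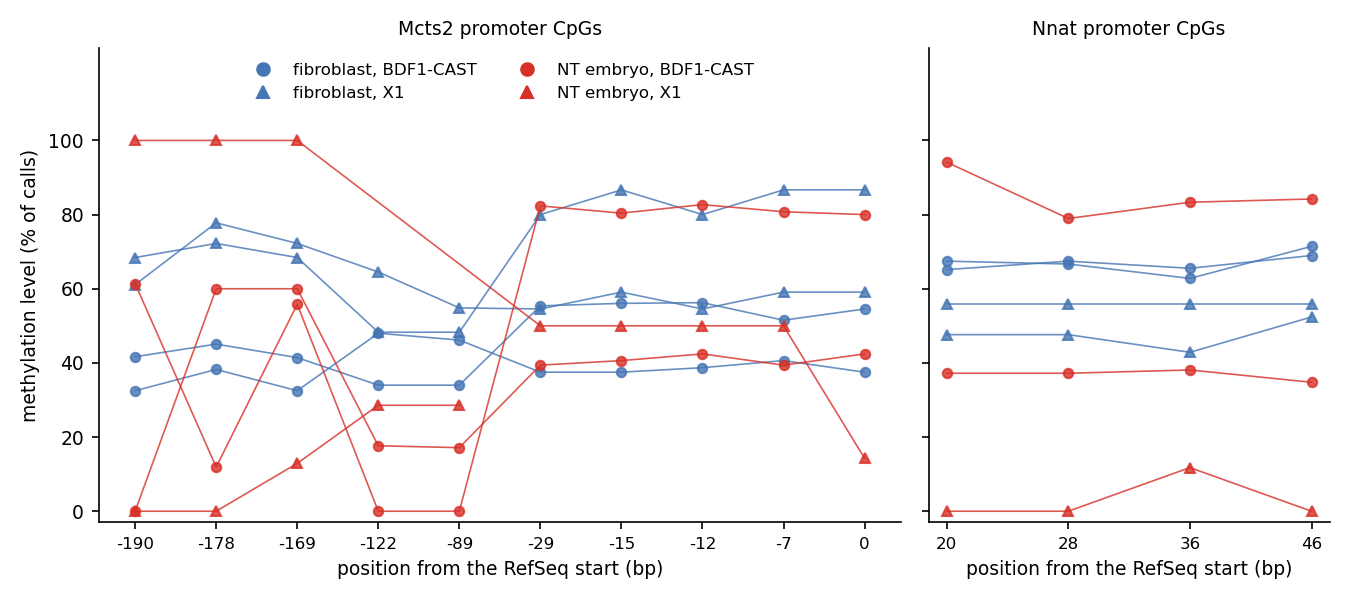
Methylation level (percent of calls, y axis) of each kept CpG of the Mcts2 and Nnat promoters, by its distance in bases from the RefSeq start (x axis, evenly spaced), in each sample with at least 5 calls there. Lines join the CpGs of 1 sample, blue for fibroblasts and red for NT embryos. Fibroblast lines lie between 32.5 and 86.7% at Mcts2, where NT lines span 0 to 100%. At Nnat NT BDF1-CAST 1 lies above and NT X1 3 below all fibroblasts.

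Peg10 had the widest spread in NT embryos. Its 9 kept CpGs of 13 seen lay within chr6:4697354-4697488. The fibroblasts read 45.3, 27.0, 48.8 and 50.3%. The NT samples read 0, 75.4, 5.13 and 0%. So 3 NT samples were at or near 0 and NT BDF1-CAST 2 was above all fibroblasts. No methylated call was seen among 155 calls in NT BDF1-CAST 1 and among 140 in NT X1 4, counts of 0 that allow up to 1.94% and 2.14%. In NT BDF1-CAST 2, 49 of 65 calls were methylated (95% Wilson interval 63.7 to 84.2%). Intervals and limits cover counting error only, since reads copied by PCR are not independent molecules. The means were 42.8% ± 10.8 (SD, n = 4) and 20.1% ± 36.9 (SD, n = 4), and the difference of -22.7 points had an exact permutation p of 0.286. Without NT BDF1-CAST 2 it was -41.1 points (exact permutation p = 0.0286, the smallest these group sizes allow). That sample alone went the other way, so this p is no test of the 4 NT samples. Leaving out any other 1 sample gave -28.0 to -16.0 points (exact permutation p from 0.171 to 0.457). The 1 tested tile, chr6:4697400-4697499, read 44.6, 25.6, 65.6 and 62.9% in fibroblasts and 0, 67.6, 0 and 0% in NT samples (quasi-binomial model, adjusted p = 0.274). Leaving out NT BDF1-CAST 2 again removed the 1 NT sample that went the other way, and the same model then gave an adjusted p of 0.0274.

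Mcts2 had no difference past the test, and its samples varied in both groups. Its 16 kept CpGs of 28 seen lay within chr2:152512579-152512883, with 322 to 964 calls per fibroblast sample and 138 to 639 per NT sample. The fibroblasts read 39.2, 35.2, 61.8 and 55.9%, so both X1 samples were above both BDF1-CAST samples. The NT samples read 67.0, 32.3, 12.9 and 63.8%, and here the high and the low samples came 1 from each strain. The means were 48.0% ± 12.8 (SD, n = 4) and 44.0% ± 26.0 (SD, n = 4), a difference of -4.03 points (exact permutation p = 0.857). The difference was 12.5 points in the BDF1-CAST samples alone and -20.5 points in the X1 samples alone, each with 2 samples against 2 and no test. Without NT X1 3 the difference was 6.33 points, and without TT X1 3 it was also above 0.

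Neighbouring stretches of the Mcts2 window took different values within 1 NT sample. In the tile chr2:152512600-152512699, which had the most positive difference, the fibroblasts read 21.5, 28.1, 53.0 and 46.6% and the NT samples 70.7, 15.7, 12.7 and 100%, on 17 to 228 calls per sample. In the tile chr2:152512800-152512899, which had the most negative difference, the fibroblasts read 54.7, 38.4, 84.0 and 57.3% and the NT samples 81.3, 40.9, 0 and 42.9%, on 13 to 327 calls. The differences were 12.5 and -17.4 points, and neither tile was called (quasi-binomial model, adjusted p = 0.488 and 0.791). Over the 10 promoter CpGs the NT samples read 63.9, 34.9, 6.72 and 66.9%, against 45.7, 38.3, 68.8 and 61.1% in fibroblasts. CpGs within a short stretch can lie on the same reads, so they are not independent measurements.

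Gnas window 1 had close group means that did not pass the test. It is the largest window, with 121 kept CpGs of 252 seen over chr2:174110189-174126106. The fibroblasts read 44.4, 42.4, 42.05 and 40.2%. The NT samples read 35.6, 43.6, 43.1 and 31.4%, so NT BDF1-CAST 2 and NT X1 3 lay within the fibroblast range and the other two were below it. The difference of means was -3.83 points (42.3% ± 1.69 against 38.4% ± 5.97, SD, n = 4 each, exact permutation p = 0.371), and -1.48 points without NT X1 4. Each fibroblast sample had 3061 to 6307 calls and each NT sample 1879 to 2558. Its kept CpGs fell into 2 parts, separated by a gap of 7674 bp. In the left part the NT samples read 13.7, 35.5, 44.9 and 38.5%, against 38.4 to 43.8% in fibroblasts (-8.04 points, exact permutation p = 0.343). In the right part they read 40.2, 48.7, 42.3 and 28.3%, against 40.6 to 44.6% (-2.89 points, exact permutation p = 0.657).

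Single tiles of Gnas window 1 varied more than its mean. Of 21 tested tiles, 15 had a lower and 6 a higher mean in NT, and none was called. The most negative difference was at chr2:174125800-174125899, a tile with 1 kept CpG and 16 to 49 calls per sample, where fibroblasts read 48.7, 10.0, 41.7 and 37.5% and NT samples 8.70, 5.88, 2.04 and 4.88%. All NT samples were below all fibroblasts (-29.1 points, quasi-binomial model, adjusted p = 0.0817). The most positive difference was at chr2:174125300-174125399, which also had the lowest fibroblast level: 16.9, 11.1, 39.0 and 19.05% in fibroblasts, and 13.8, 100, 87.5 and 0% in NT samples (quasi-binomial model, adjusted p = 0.454). Here the NT samples lay at both ends of the range, on as few as 10 calls in a sample. The tile with the highest fibroblast level, chr2:174123500-174123599, read 68.8, 58.6, 75.2 and 65.5% in fibroblasts and 56.0, 75.4, 47.6 and 34.7% in NT samples (quasi-binomial model, adjusted p = 0.334).

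Gnas window 2 joined a half-methylated and an unmethylated stretch. Its 111 kept CpGs of 181 seen ran over chr2:174152431-174155999. The fibroblasts read 12.3, 9.88, 10.99 and 7.91% and the NT samples 6.23, 11.8, 5.61 and 3.40%, on 1502 to 5287 calls (-3.50 points, exact permutation p = 0.143). The right part, beyond a gap of 987 bp, contained the placed Gnas promoter. It read 0.347 to 0.833% in fibroblasts and 0.0782 to 1.18% in NT embryos, with 1063 to 3600 calls per sample. The promoter itself read 0.245 to 1.84% in fibroblasts and 4.58, 1.86, 0.33 and 0.49% in NT samples 1 to 4. Within it, the tile chr2:174155400-174155499, which had too few calls to be tested (4 to 161) and was singled out after its values were seen, read 0 to 4.11% in fibroblasts and 30.8, 2.22, 0 and 25% in NT samples. The 25% of NT X1 4 rested on 4 calls at a single CpG, chr2:174155472, which read 0 to 21.4% in fibroblasts. In NT BDF1-CAST 1 the CpGs at chr2:174155452 and chr2:174155458 read 100% on 6 and 5 calls. At chr2:174155472 that sample read 14.3% on 7 calls. No other kept CpG of the promoter had a methylated call in NT BDF1-CAST 1. The left part, upstream of that promoter, read 36.8, 30.1, 36.8 and 25.7% in fibroblasts and 16.4, 31.8, 21.3 and 11.2% in NT samples. There 3 of 4 NT samples were below all fibroblasts and NT BDF1-CAST 2 was within their range (-12.2 points, exact permutation p = 0.0857).

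The 1 called tile of all windows lay in this left part, at chr2:174154000-174154099, with 6 kept CpGs and 53 to 304 calls per sample. The fibroblasts read 33.2, 19.7, 29.0 and 36.1%. The NT samples read 7.94, 11.8, 0 and 0%. All NT samples were below all fibroblasts, and both X1 NT samples were at 0. The difference was -24.6 points (quasi-binomial model, adjusted p = 0.0478). The call was lost when any 1 of the 8 samples was left out (adjusted p from 0.0676 to 0.206) and with limma on arcsine square root levels (adjusted p = 0.0616). The tiles with the highest fibroblast level and the most positive difference in window 2 had NT means 2.29 and 8.80 points higher (quasi-binomial model, adjusted p = 0.949 and 0.441). The tile chr2:174155800-174155899 was at 0 in all 8 samples.

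**Figure D3:**
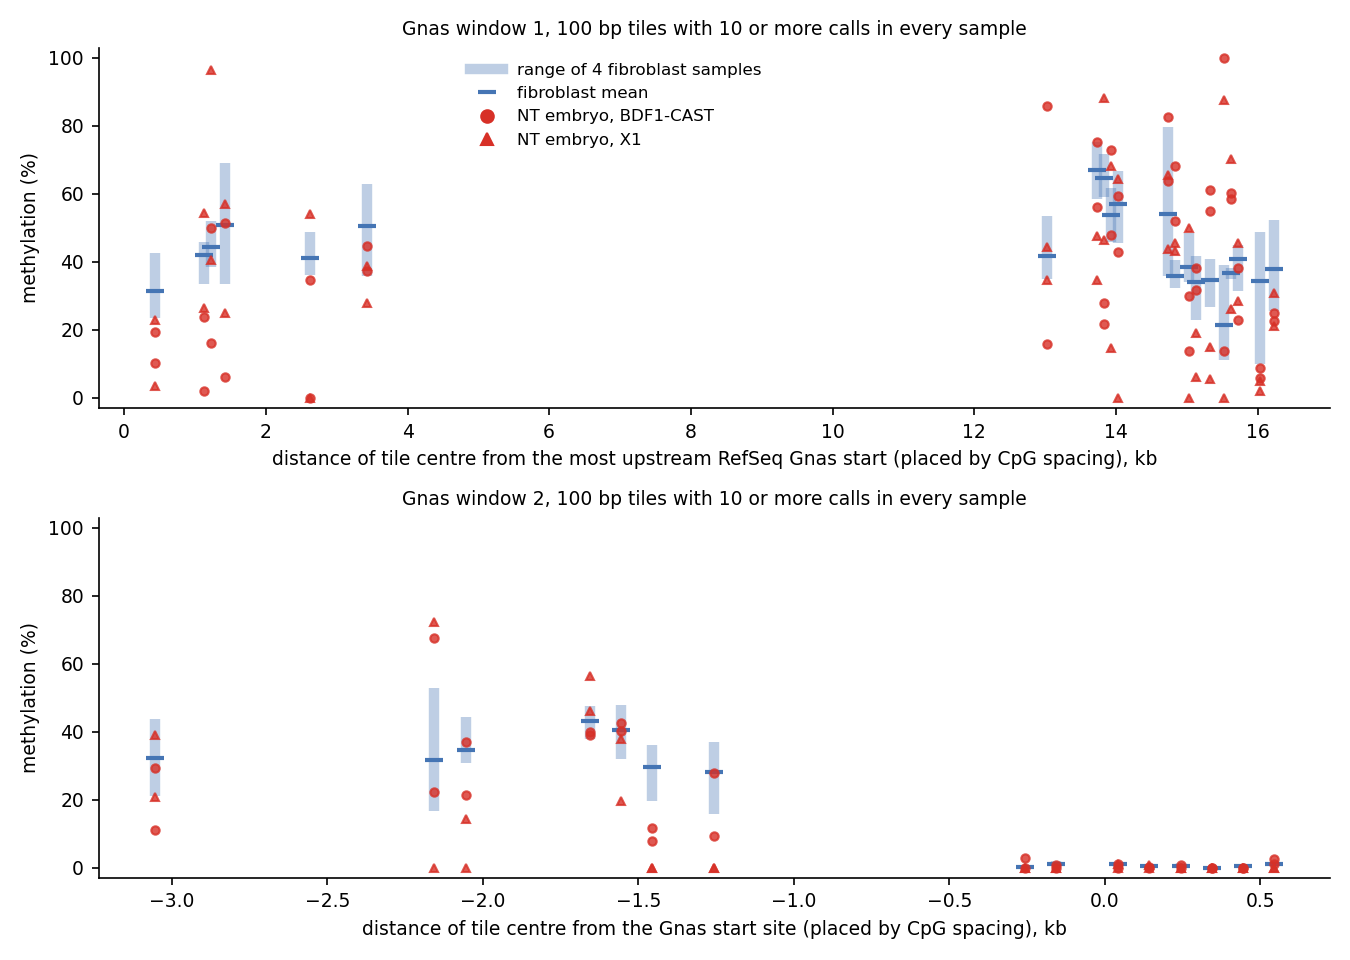
Methylation level (percent of calls, y axis) of tested 100 bp tiles in the 2 Gnas windows, by distance in kb from the placed RefSeq starts (x axis). The last tile of window 2 holds CpGs just past its end. Blue bars span the 4 fibroblast samples with their mean, and red symbols are the 4 NT samples, circles for BDF1-CAST and triangles for X1. Tiles at the Gnas start in the lower panel lie near 0 in all samples. The tiles upstream of it and those of window 1 have fibroblast means between 21.5 and 67.0%, and many spread widely in NT embryos.

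At Mest and Nap1l5 the groups overlapped and neither window passed the test. Mest had 8 kept CpGs of 17 seen over chr6:30685293-30689332. Its fibroblasts read 45.8, 38.2, 38.8 and 30.1% and its NT samples 33.2, 23.3, 40 and 18.4%. Of the NT samples, 2 were below the lowest fibroblast sample (-9.48 points, exact permutation p = 0.20). The difference was -6.04 points without NT X1 4 and -2.97 points with CpGs at 10 calls in all 8 samples. The fibroblast values rested on 160 to 459 calls and the NT values on 87 to 200. Nap1l5 had 10 kept CpGs of 17 seen over chr6:58856627-58856870. Its fibroblasts read 42.4, 34.5, 55.8 and 36.4% and its NT samples 15.6, 27.8, 41.9 and 34.8%. Both BDF1-CAST NT samples were below all fibroblasts and both X1 NT samples within their range (-12.3 points, exact permutation p = 0.143). It was -7.43 points without NT BDF1-CAST 1 and -7.75 points without TT X1 3. The value of NT X1 3 at Nap1l5 rested on 31 calls (95% Wilson interval 26.4 to 59.2%).

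The tested tiles of these genes differed in both directions. At Mest the tile chr6:30689300-30689399 read 36.6, 34.4, 34.04 and 28.6% in fibroblasts and 0, 26.3, 46.2 and 9.52% in NT samples, a difference of -12.9 points. The tile next to it had an NT mean 3.50 points higher. At Nap1l5 the tile chr6:58856600-58856699 read 72.4, 36.9, 43.3 and 31.3% in fibroblasts and 29.4, 13.3, 18.2 and 52.0% in NT samples, a difference of -17.7 points. The tile after it had an NT mean 5.52 points higher. The 4 tiles had 11 to 225 calls per sample, and none was called (quasi-binomial model, adjusted p from 0.321 to 0.908).

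Over the 7 windows 52 of 74 tiles had at least 10 calls in every sample and were tested. The 52 include chr2:174156000-174156099, which starts at the last base of Gnas window 2 and whose kept CpGs lie beyond it. It read 0 to 2.47% in the 8 samples and enters the counts of tiles. Of these, 37 had a lower mean in NT (71.2% of all tested tiles did), 14 a higher mean and 1 was equal. The median difference was -7.78 points, against -2.08 points over all 271481 tested tiles and -6.16 points over 64181 tested tiles at 20 to 80% in fibroblasts. The 52 tiles include the unmethylated stretch of Gnas window 2, which the set at 20 to 80% leaves out. Neither set was matched to the windows in level. The 1 call, for a lower level, compares with 3.56% of all tested tiles, or 5.07% with a lower level among tiles at 20 to 80% in fibroblasts. No tile was called higher, against 0.134% of all tiles. At an unadjusted p under 0.05 stood 7 of the 52 tiles (13.5%), against 26.2% of all tiles. For this count and the separations below, the shares cover tiles at every fibroblast level. No share at 20 to 80% in fibroblasts was computed for them, so they are not a matched comparison. All NT samples lay below all fibroblasts in 3 tiles, against 11.6% of all tiles, and above them in 1, against 0.898%. That 1 tile, in Gnas window 1 at chr2:174124600-174124699, was singled out after its values were seen: fibroblasts read 40.7, 35.8, 34.1 and 32.2% and NT samples 68.3, 52.0, 43.2 and 45.7% (quasi-binomial model, adjusted p = 0.0537).

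Strain and the interaction of strain with group gave no call in the windows. For strain 0 tiles were called, against 0.0111% of all tiles, with 6 of 52 at an unadjusted p under 0.05 (14.4% of all tiles). Here limma called 0 in the windows, against 5 of all 271481 tiles, with 7 of 52 under 0.05. For the interaction 0 tiles were called, as in all tested tiles (0%), with 7 of 52 at an unadjusted p under 0.05 (8.15% of all tiles). Here limma called 0 in the windows, against 2 of all 271481 tiles, with 6 of 52 under 0.05. The share of all tiles under 0.05 with limma was not computed. With so few calls among all tiles, 0 calls in the windows say little about them.

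Set against the rest of the genome, no window passed the test with all samples. In each sample the mean of the reference windows, chosen in fibroblasts of the other strain, was subtracted. That mean differed by strain. In fibroblasts it was 41.5 and 40.5% in BDF1-CAST and 53.6 and 53.6% in X1. In NT embryos it was 29.5 and 29.5% in BDF1-CAST and 44.6 and 36.9% in X1. The permutation test did not take strain into account, so this offset adds to the spread. A missed threshold here is therefore weak evidence that a window moved with the reference. After this, the NT minus fibroblast difference was -6.48 points at Nnat (exact permutation p = 0.60) and -10.5 points at Peg10 (exact permutation p = 0.686). Without NT BDF1-CAST 2, the 1 NT sample above all fibroblasts at Peg10, the difference there was -30.8 points (exact permutation p = 0.0286). With any other sample left out it was -13.5 to -2.36 points. Nap1l5 was close to the reference at -0.0595 points (exact permutation p = 1). Mest was 2.71 points higher in NT embryos (exact permutation p = 0.771), Mcts2 8.16 points higher (exact permutation p = 0.629) and Gnas window 1 8.37 points higher (exact permutation p = 0.229). Gnas window 2 is not half-methylated, so this reference does not match it.

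**Figure D4:**
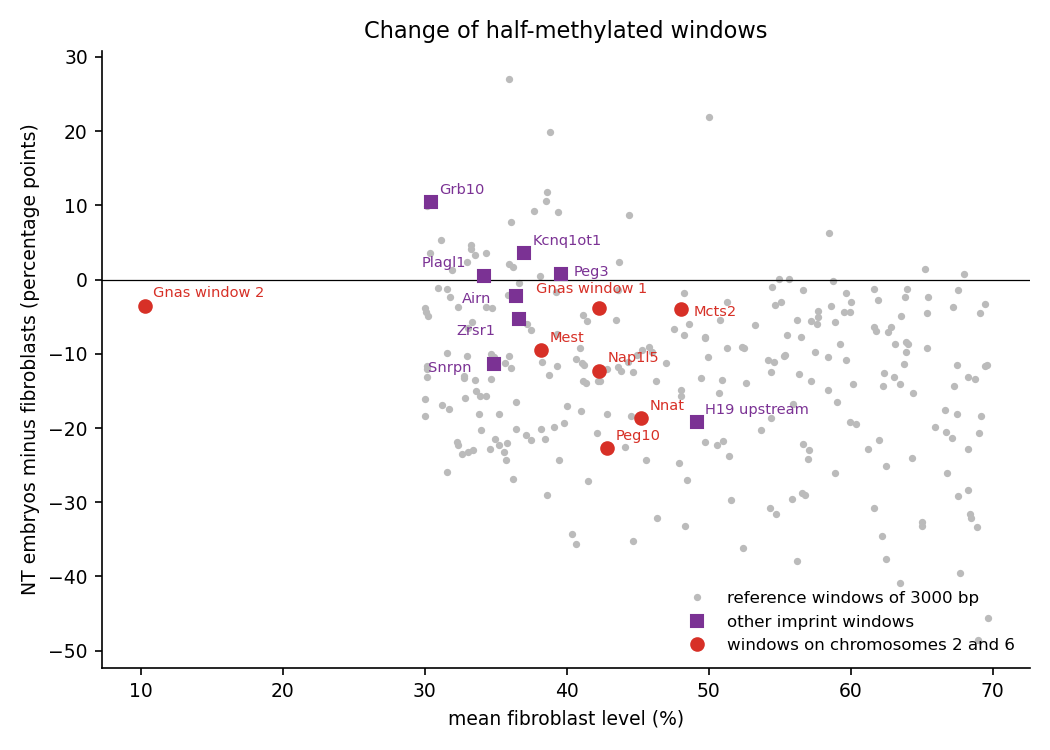
NT embryos minus fibroblasts (percentage points, y axis) by mean fibroblast level (percent, x axis), with grey points for the 264 reference windows, red circles for the 7 windows and purple squares for 8 other imprint windows. The red circles lie below 0 and within the cloud of grey points, apart from Gnas window 2, whose fibroblast level is under the range of the reference.

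Of 8 other imprint windows, at Peg3, Snrpn, Kcnq1ot1, H19, Plagl1, Grb10, Airn and Zrsr1, 4 had a lower and 4 a higher mean in NT embryos, by -19.3 to 10.4 points, and none passed the test (0 of 8 at an exact permutation p under 0.05). Grb10, whose maternal imprint governs a growth adaptor gene, had the highest difference at 10.4 points (exact permutation p = 0.0571). As in the 7 windows, the SD was wider in NT in 8 of 8.

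Draws of calls without any methylated call were more frequent in NT embryos, in the windows and outside them. For tiles at 20 to 80% in fibroblasts of the other strain, the expected share was computed in which 10 calls drawn from a tile are all unmethylated. In the 7 windows this share was 1.08, 2.71, 0.766 and 1.85% in fibroblast samples 1 to 4 and 15.9, 5.94, 26.3 and 29.0% in NT samples 1 to 4, over 43 or 44 tiles. All NT samples were above all fibroblasts. In the other imprint windows it was 1.75 to 4.44% in fibroblasts and 7.29 to 25.6% in NT embryos. In the rest of the autosomes it was 0.925 to 3.74% and 7.77 to 14.3%. Within NT embryos the BDF1-CAST samples read 15.9 and 5.94% in the 7 windows, 15.8 and 7.29% in the other imprint windows and 14.3 and 10.8% in the rest of the autosomes. The X1 samples read 26.3 and 29.0%, 22.7 and 25.6%, and 7.77 and 10.8%. These differences between sets were not tested. Draws in which all 10 calls were methylated made up 0.0941 to 0.637% in fibroblasts and 0.803 to 6.43% in NT embryos in the 7 windows. They made up 0.0138 to 0.179% and 0.0678 to 2.58% in the other imprint windows, and 4.07 to 9.61% and 3.39 to 12.7% in the rest of the autosomes, where the groups overlapped. Median calls per tile in the 7 windows were 95 to 178 in fibroblasts and 48 to 73 in NT embryos. They were 98 to 215 and 48 to 82 in the other imprint windows, and 46 to 113 and 30 to 39 in the rest of the autosomes. The part of depth and of molecules copied by PCR in these shares was not tested.

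**Figure D5:**
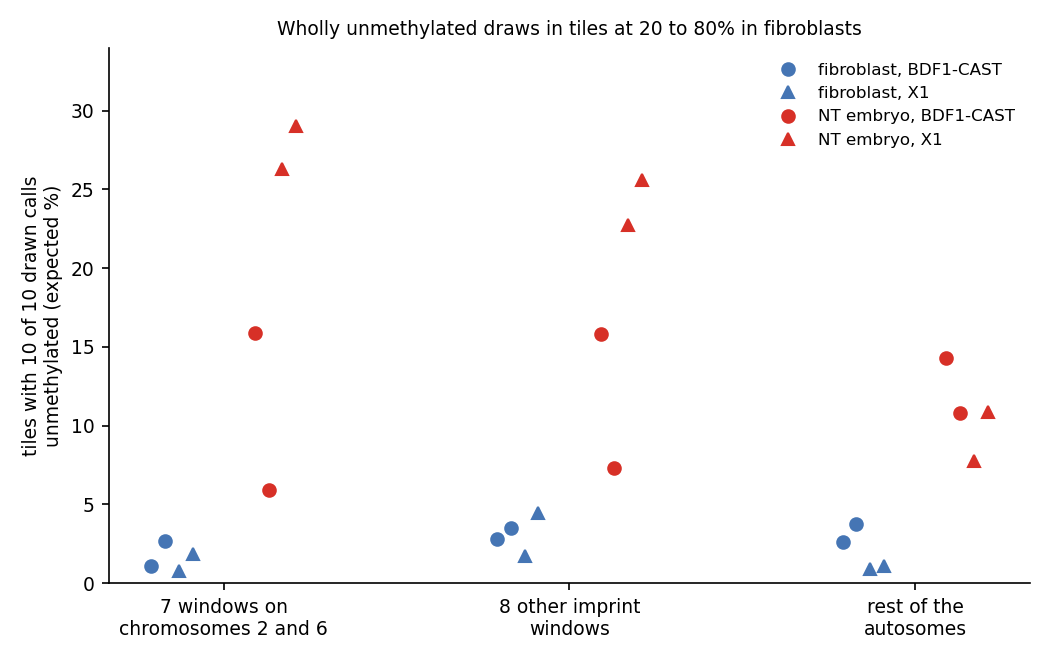
Expected share of tiles (percent, y axis) in which 10 drawn calls are all unmethylated, for 3 sets of tiles (x axis), in each fibroblast sample (blue) and NT sample (red), with circles for BDF1-CAST and triangles for X1. In the 7 windows the fibroblasts lie at 0.766 to 2.71% and the NT embryos at 5.94 to 29.0%.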

How the data were processed

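Reduced representation bisulfite sequencing gave 9 mouse libraries. For each, the authors deposited counts of calls and of methylated calls per CpG, per the deposited description of the files. The build is mm9, per the submitters' processing notes. How reads were aligned and called, and whether copied reads were removed, is not stated in the labels or the deposited description. In addition, 18 columns of a deposited tile table belong to other samples and were not used. The deposited description marks fibroblast library 1a as a resequencing of 1, so both were summed, leaving 8 samples. Groups and strains come from the labels.

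CpGs with at least 5 calls in 6 samples were kept, and calls were summed per window and per 100 bp tile. Windows were compared with a two-sided exact permutation test over 70 assignments. Every tile with 10 calls or more in each sample entered a quasi-binomial logistic model with terms for group and strain. Its dispersion, never under 1, was moderated by squeezeVar of limma 3.58.1 (R 4.3.3), and p-values were adjusted over all tiles by Benjamini-Hochberg. Called tiles had adjusted p under 0.05 and differed by 20 points or more. Tiles named are those called and, per window, those with the extreme fibroblast level or difference. The model was tested on simulated data in 2 ways. With 200 tiles changed by 30 points it made no call. With 20000 tiles, at 70% or more and lowered by 40 points, it recovered 73.5% of them. Those tiles started higher than the windows here, and the simulated spread was not wider in NT. So few calls in the windows are weak evidence that a tile did not change. Of the unchanged tiles, 7.68 and 7.78% had an unadjusted p under 0.05, so counts at that p run high.

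The pairing of replicate numbers was checked within strains: the deviations of same-numbered samples correlated at -0.0356 in BDF1-CAST and 0.0106 in X1 over 64181 tiles, so the numbers were not taken to pair the samples. The calls behind the window values, and behind most named tiles, are given with them. RefSeq promoters were placed on the deposited positions by the spacing of CpGs alone, needing at least 4 matches, and no coordinates were converted. The other imprint windows were set from general knowledge of mm9.

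The members and lists were chosen with earlier results of these data known. The division of the Gnas windows, the shares from drawn calls, the windows with 8 to 30 CpGs, the promoter placement and the second simulation were chosen after values were seen. Python 3.11.15, numpy 2.4.6, pandas 2.3.3 and scipy 1.17.1 were used.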

Additional observations from a re-analysis of the deposited data

Results flagged for a closer look

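At Peg10 the highest NT sample, NT BDF1-CAST 2, read 75.4%, far from the next highest NT sample at 5.13%, a gap that is most of the range of the 4 samples. It was the 1 such sample among 14 groups of 4 looked at, where chance gives about 0.7. The value rested on 65 calls.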

How the results depend on the processing

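The alternatives were other CpG and tile minimums, equal weights, library 1 without 1a, limma, each strain alone, other reference windows, a replicate block and leaving out each sample. The difference at Nnat missed the threshold with CpGs at 5 calls in all 8 samples (-15.7 points), with equal weights (-13.5) and with the replicate block (-18.7 points, exact sign-flip p = 0.125, the smallest that 4 pairs allow). With 1 sample left out it ranged from -23.6 to -13.1 points, and it missed the threshold without any 1 of the fibroblast samples (exact permutation p = 0.0571). In those cases the difference stayed at -17.6 to -19.3 points, and every NT sample was still below every remaining fibroblast sample. With uneven groups, full separation does not always give the smallest p of this test. In BDF1-CAST alone the difference was positive at Mcts2 (12.5) and Peg10 (1.53). Leaving out 1 sample gave -11.7 to 6.33 at Mcts2, and -41.1 to -16.0 at Peg10, which passed the threshold without NT BDF1-CAST 2, and -5.56 to -1.48 at Gnas window 1. Relative to the reference windows, leaving out 1 sample gave -1.37 to 21.7 at Mcts2, -13.3 to 2.21 at Nnat, -30.8 to -2.36 at Peg10, -2.09 to 7.16 at Mest, 4.76 to 11.3 at Gnas window 1 and -4.12 to 2.89 at Nap1l5, whose sign also turned with reference windows at 40 to 60% (0.171) or with 10 kept CpGs (0.734). The number of tiles called between the groups was 0 with 20 calls in every sample, with limma, with library 1 without 1a and with the replicate block (7 of 52 tiles at an unadjusted p under 0.05 without the block, 5 with it), and 0 to 1 with a sample left out: the 1 was the Peg10 tile without NT BDF1-CAST 2, and the Gnas window 1 tiles starting at 174123600 without NT X1 3 and at 174125400 without NT X1 4. The replicate block, and leaving out fibroblast sample 1 or 2, also left 0 calls among all tiles. The cause was not tested. Tiles whose difference turned sign with a sample left out ranged as follows: at Mcts2 chr2:152512600-152512699 from -4.28 to 24.8; at Nnat chr2:157385800-157385899 from -26.1 to 0.839 and chr2:157387500-157387599 from -3.09 to 10.0; in Gnas window 2 chr2:174153800-174153899 from -1.35 to 4.43 and chr2:174153300-174153399 from -1.77 to 22.3; at Mest chr6:30689200-30689299 from -4.68 to 11.04; at Nap1l5 chr6:58856700-58856799 from -5.11 to 14.99. With 10 calls in all 8 samples Peg10 and Nap1l5 gave no value. Some NT values rest on few calls, down to 31 at Nap1l5, 15 in the Nnat promoter and 10 in single tested tiles.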

Other observations

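Just outside Gnas window 1 the most upstream RefSeq promoter of Gnas, that of the Nesp transcript, was placed in mm9 at chr2:174109570-174109869 by 7 of 7 CpGs. It was looked at after its values were seen. Its 5 kept CpGs read 26.4, 10.9, 34.8 and 31.1% in fibroblast samples 1 to 4 and 0, 3.03, 0 and 3.51% in NT samples 1 to 4, with 33 to 216 calls per sample. NT BDF1-CAST 2 had calls only at the CpGs at -81 and -50 bases from the start, so its 3.03% rested on 33 calls there. All NT samples were below all fibroblasts, a separation found in 11.6% of the tested 100 bp tiles. Those tiles lie at every fibroblast level and were not matched to this promoter.

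Relative to the reference windows, Grb10 was 22.6 points higher in NT embryos (exact permutation p = 0.0286), which no window on chromosomes 2 and 6 reached with all samples. It had the highest such difference of the other imprint windows, and this p is the smallest the test allows. Its fibroblast mean was 30.4%, below the reference means of 40.5 to 53.6% in fibroblasts. The contrast with the windows on chromosomes 2 and 6 was not tested.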
